A study of Caenorhabditis elegans with 6 samples.

Results

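Caenorhabditis elegans miRNAs were numbered largely in the order in which they were reported, and the genes numbered from mir-227 to mir-999 are described here. The set was every entry of the deposited count files named cel-mir-N with N in that range and any letter or copy suffix, except 18 numbers that belong to other families or genes. The exceptions were mir-228, mir-229, mir-235, mir-237, mir-238, mir-239, mir-241, mir-246, mir-247, mir-250, mir-357, mir-358, mir-790, mir-791, mir-793, mir-794, mir-795 and mir-797. This gave 50 of the 253 miRNA genes counted. The set is defined by number alone, so its members share no sequence, function or tissue by construction.

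The libraries were made from gonads dissected from adult N2, the standard wild-type strain, with 3 small RNA libraries from hermaphrodites and 3 from males. The labels name no treatment or mutation in either group and give the cell type as germline. An adult hermaphrodite gonad produces oocytes, having made its sperm earlier in life, and a male gonad produces sperm. The age in hours, the number of animals per sample and any pooling are not given in the sources used here. The libraries allow the miRNA content of the gonad to be compared between the sexes.

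A miRNA gene is transcribed as a hairpin that the nucleases Drosha and Dicer cut into a short mature strand. The mature strand is loaded into an Argonaute protein and guides it to messenger RNAs, mainly through pairing of a few bases near its 5′ end, the seed. Worm miRNAs that share a seed, or that are close relatives, such as mir-251 with mir-252, are treated as families. Within the numbered range, mir-786 is known in C. elegans for setting the rhythm of defecation from the intestine. The Argonaute RDE-1 is known to bind mir-243, which triggers the production of small interfering RNAs against its target.

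The hermaphrodite libraries held between 2268159 and 2621478 miRNA counts and the male libraries between 245399 and 597166. Sequencing depth and sex therefore cannot be told apart. The upper limit set by observing no reads, 3 counts, equalled 1.14 CPM (counts-per-million of all miRNA counts) in the deepest library, hermaphrodite replicate 1, and 12.2 CPM in the shallowest, male replicate 3. These limits, and the Wilson intervals given below, cover counting error alone. The oocyte and embryo markers mir-35 to mir-42 summed to between 202495 and 343606 scaled CPM in hermaphrodite libraries and between 390 and 449 in male libraries, where 1 of the 8, mir-41, had no count. Here and below, scaled CPM are CPM of the library total after scaling by the trimmed mean of M values (TMM). A list of 6 somatic markers (mir-1 of muscle, mir-60 of intestine, lsy-6, mir-124 and mir-791 of neurons, and mir-228 of glia and hypodermis) had counts in both sexes for all 6. Their sum ranged from 6061 to 8273 scaled CPM in hermaphrodite and from 10615 to 16621 in male libraries, most of it mir-228. The markers did not move together: mir-228 (log2 fold change 1.22, adjusted p 0.00458) and lsy-6 (1.498, adjusted p 0.0262) were higher and mir-1 (-1.16, adjusted p 0.0121) lower in male gonads in the edgeR fit used below, and mir-60 was not called (0.93, adjusted p 0.0582). Among the scalings, mir-1 was not called with library totals (-0.08) or upper-quartile scaling (-0.94), mir-228 not with TMM without the mir-35 family, and lsy-6 not with that or relative log expression (RLE) scaling. The call was also lost without hermaphrodite replicate 2 or 3 for mir-228 (adjusted p 0.149 and 0.165), without hermaphrodite replicate 3 for mir-1 (0.0826) and without male replicate 1 or 2 for lsy-6 (0.0733 and 0.702). Their part in the differences below was not tested.

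Detection was uneven along the numbers. Of the 50 genes, 33 had at least 1 count in some library and 17 had none in any of the 6. The 17 were mir-234, mir-251, mir-255, mir-256, mir-356a, mir-360, mir-799 and the 10 genes from mir-264 to mir-273. With all libraries pooled, no reads allows a level of up to 0.352 CPM, and with the male libraries alone up to 2.34 CPM. Genes without a count made up 34.0% of this set, 41.8% of the 122 miRNAs numbered from mir-1000 upwards, and 4.94% of the 81 miRNAs with other names. These 81 include the 19 entries of the excepted numbers, so the contrast depends in part on how the set was chosen. The range from mir-251 to mir-273 held most of the empty entries, with 13 of its 18 genes at 0. In contrast, 9 of 13 genes from mir-230 to mir-249 and 9 of 12 from mir-784 to mir-800 had enough counts to be tested.

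**Figure D1:**
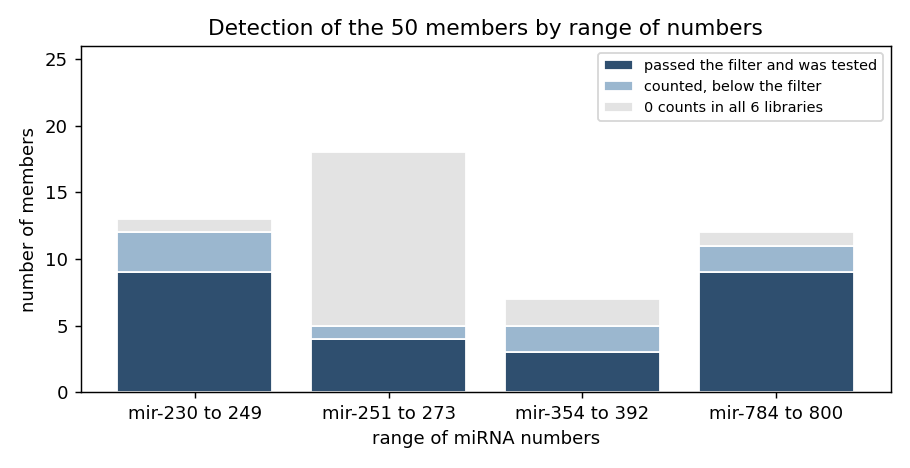
Number of the 50 genes (vertical axis) in each range of miRNA numbers (horizontal axis), divided into those tested, those counted but below the filter, and those with 0 counts in all 6 libraries. In the range from mir-251 to mir-273, 13 of 18 genes had no count, against 1 of 12 from mir-784 to mir-800.

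A gene was taken as detected in a sex at 10 CPM or more in 2 or all 3 of its libraries. By this criterion 18 of the 50 genes were detected in hermaphrodite and 24 in male gonads. All 18 were also among the 24. The 6 genes detected only in male gonads by this criterion were mir-261, mir-788, mir-789-1, mir-789-2, mir-796 and mir-800. All except mir-261 had counts in every hermaphrodite library. For mir-800 the counts were 16, 12 and 15 in hermaphrodite and 14, 14 and 3 in male replicates 1 to 3. In male replicate 3, 10 CPM lies below the limit set by observing no reads. With at least 10 raw counts in 2 of 3 libraries the numbers were 20 and 20, and mir-242, mir-259 and mir-786 were then detected only in hermaphrodite gonads, whose libraries were deeper.

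Several genes with relatives in other animals were close to or at the floor. For mir-234, a relative of vertebrate miR-137, no count was recorded. The genes mir-233, related to insect miR-87, and mir-236, related to the vertebrate miR-200 family, had at most 3 and at most 6 counts in any library. The counts of mir-236 were 2, 3 and 0 in hermaphrodite replicates 1 to 3 and 3, 6 and 2 in male replicates 1 to 3. The gene did not pass the filter on low counts described below. Of 3 alternatives that tested it without that filter, edgeR called it as higher in male gonads (log2 fold change 2.53, SE 0.99, adjusted p 0.0439), and DESeq2 (adjusted p 0.115) and limma-trend (0.0643) did not. Of the pair mir-251 and mir-252, mir-251 had no count whereas mir-252 had between 35 and 322 in every library. The hairpins mir-356a and mir-356b lie on opposite strands of chromosome III. The first had no count, and the second was counted 5, 3 and 5 times in hermaphrodite libraries (replicates 1 to 3) and 2, 0 and 0 times in male libraries. For mir-392 the counts were 3, 0 and 0 in hermaphrodite and 9, 2 and 1 in male replicates 1 to 3. A call as higher in male gonads was made by edgeR with no filter (log2 fold change 3.19, SE 1.11, adjusted p 0.0245) and by limma-trend (adjusted p 0.0305), and not by DESeq2 (0.110). In all, 8 genes were counted but did not pass the filter, and none of them reached 10 counts in any library. These 3 alternatives called none of the 8 other than mir-236 and mir-392.

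The set was of modest abundance. Together the 50 genes took 0.365%, 0.347% and 0.366% of all miRNA counts in hermaphrodite replicates 1 to 3 and 0.904%, 0.858% and 1.10% in male replicates 1 to 3. The groups did not overlap, and the mean share was 2.66-fold higher in male gonads (0.359% ± 0.0110 against 0.955% ± 0.130, SD, n = 3 each). The two-sided exact permutation p was 0.1, the smallest that 3 libraries against 3 can give. Leaving the mir-35 family out of the totals moved the ratio to 2.17. These are shares of one total, so they fall where another miRNA takes more, and fewer cells of a type cannot be told apart from less of a miRNA per cell. The rise was not particular to the set. Over all miRNAs tested below, the median of the mean CPM was 75.8 in hermaphrodite and 212 in male libraries.

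Most of the counts of the set came from 3 genes, mir-245, mir-253 and mir-248, which took 63.0% ± 1.98 (SD, n = 3) of its counts in hermaphrodite gonads. The same genes took 66.0% ± 3.49 (SD, n = 3) in male gonads. In hermaphrodite libraries mir-253 was first, at a mean of 1057 CPM, which placed it at rank 31 of all 253 miRNAs. In male libraries mir-245 was first, at 2868 CPM and rank 26. The sixth most abundant gene was mir-359 in hermaphrodite gonads, at 145 CPM, and mir-244 in male gonads, at 487 CPM.

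**Figure D2:**
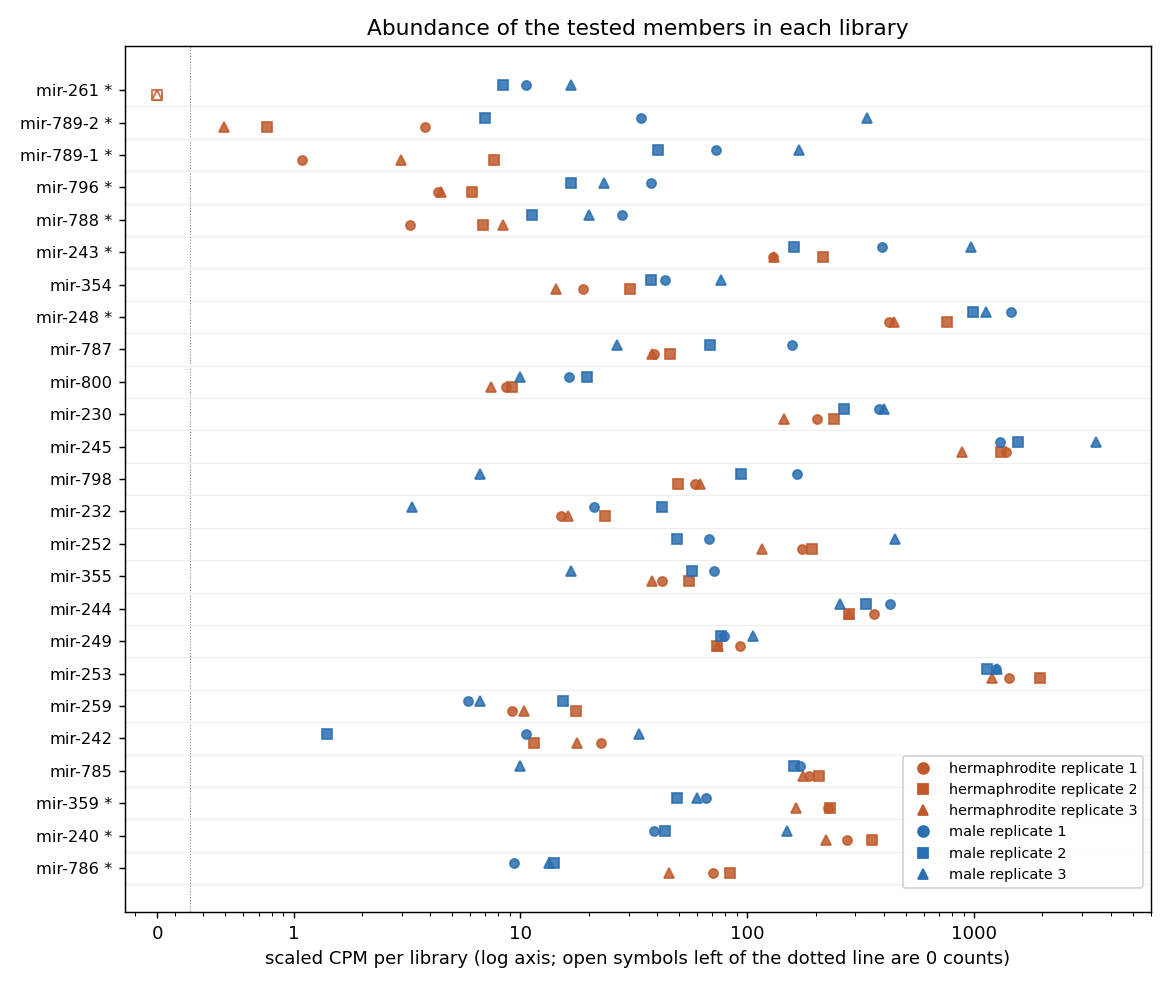
Scaled CPM on a log axis (horizontal) for each of the 25 tested genes (vertical, ordered by log2 fold change, an asterisk marks an adjusted p under 0.05), with 1 symbol per library, hermaphrodite in orange and male in blue. For mir-261 the 3 hermaphrodite libraries lie at 0 and the male libraries between 8.39 and 16.6, whereas for mir-786 the male libraries lie between 9.39 and 14.0, all below the lowest hermaphrodite value of 45.4.

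The sexes were compared with the quasi-likelihood (QL) test of edgeR over the 124 of 253 miRNAs that passed its filter on low counts, and p-values were adjusted over all 124 with the Benjamini-Hochberg method. The libraries are labelled as separate samples, and p-values measure the spread between them, which may be technical. Of the 50 genes, 25 were tested and 10 had an adjusted p under 0.05. Of those 10, 7 were higher and 3 lower in male gonads, and the other 15 were not called. Over all tested miRNAs 55.6% were called, 30.6% as higher and 25.0% as lower in male gonads, so the 40.0%, 28.0% and 12.0% of this set lay below that background. The sexes did not overlap in scaled CPM for 13 of the 25, or 52.0%, against 67.7% of all tested miRNAs. The median log2 fold change, male over hermaphrodite, was 0.69 in the set and 0.15 over all tested miRNAs.

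The filter itself bears on these counts. It required about 6.98 CPM in 3 libraries, and mir-259, mir-261, mir-788, mir-789-1, mir-789-2, mir-796 and mir-800 reached this in all male libraries but not in all hermaphrodite libraries. The 5 of these 7 that were called were all higher in male gonads, a direction the filter favours. Over all tested miRNAs 27 passed in this way and 23 of them were called as higher. Among the 16 genes above the limit in every library, 2 were higher (mir-243 and mir-248) and 3 lower (mir-240, mir-359 and mir-786), against 15 higher and 24 lower of 84 such miRNAs overall.

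The split between higher and lower calls also moved with the scaling. It was 7 and 3 with TMM, 15 and 2 with library totals, 10 and 3 with upper-quartile scaling, 5 and 3 with RLE scaling, and 4 and 4 with TMM computed without the mir-35 family. Over all 124 tested miRNAs the higher and lower calls were, in the same order, 38 and 31, 69 and 20, 50 and 27, 32 and 33, and 28 and 36. Library totals raised the median log2 fold change of all tested miRNAs by 1.03, and TMM without the mir-35 family shifted it by -0.49. The calls held under all 5 scalings for 6 of the 10 genes, namely mir-261, mir-789-1, mir-789-2 and mir-796 as higher and mir-359 and mir-786 as lower in male gonads. These higher genes all reached the filter limit in all male but not all hermaphrodite libraries, so the filter favoured their direction. The higher genes above the limit in every library, mir-243 and mir-248, were not called under all 5. How many of all called miRNAs held under all 5 scalings is not given here, so the 6 of 10 cannot be set against a background. The number of higher calls was 3, 2 and 2 without hermaphrodite replicates 1, 2 and 3 and 4 without male replicate 1. Over all miRNAs tested in these fits it was 27, 24, 23 and 30, against 38 with all libraries, so it fell there as well. Of the 25 genes, 22 were tested without each hermaphrodite replicate and 24 without male replicate 1, and mir-261 was tested in none of these fits. Without male replicate 3 there were 7 higher and 6 lower calls among the 25 genes and 43 higher and 44 lower among all 132 miRNAs then tested.

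**Figure D3:**
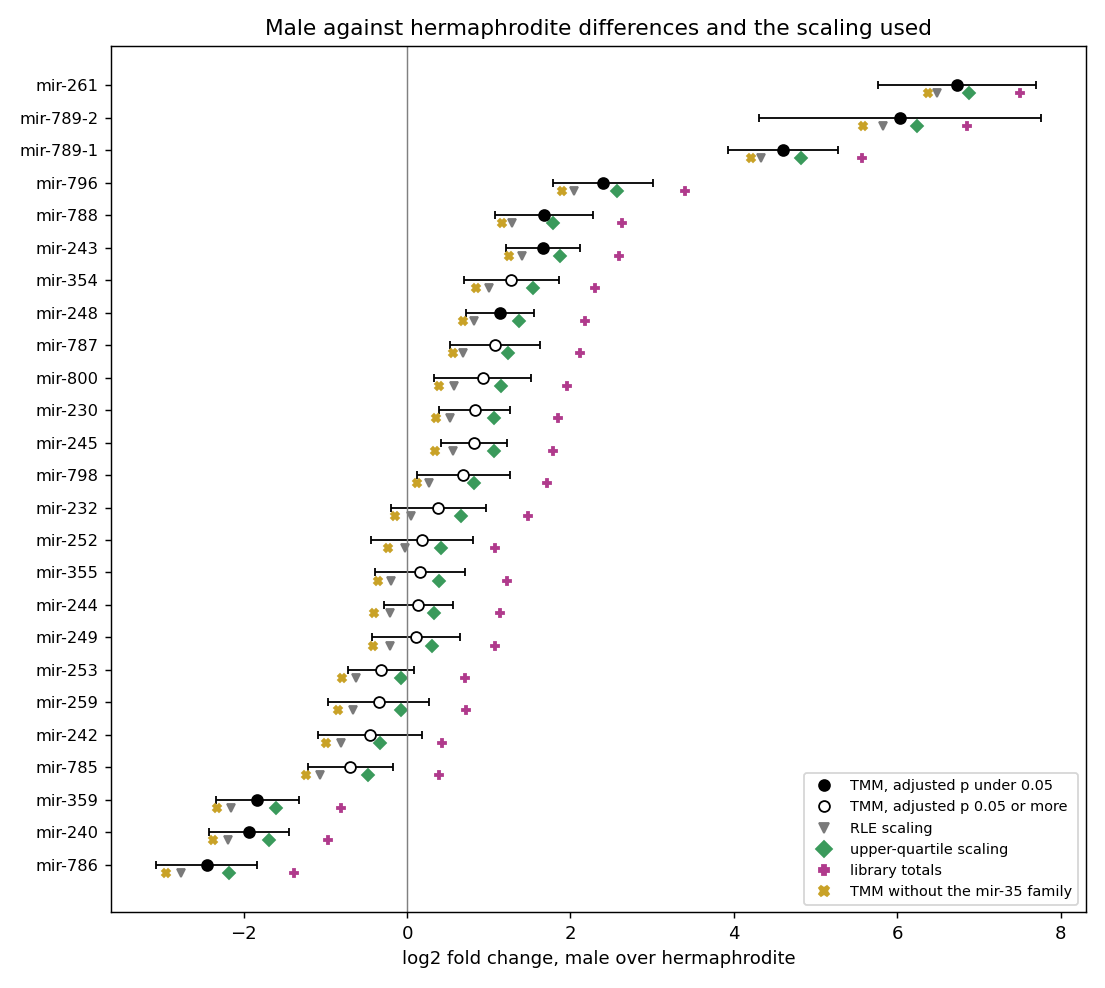
Log2 fold change, male over hermaphrodite (horizontal axis), of the 25 tested genes (vertical axis). Circles with bars are the edgeR estimate with TMM and its standard error, filled where the adjusted p is under 0.05, and coloured symbols are the estimates under 4 other scalings. Values of mir-359 run from -2.33 to -0.81 and stay below 0, and those of mir-253 run from -0.79 to 0.71 across 0.

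The gene mir-261 was counted in male gonads and listed at 0 in all 3 hermaphrodite libraries. Its counts were 9, 6 and 5 in male replicates 1 to 3, or 10.6, 8.39 and 16.6 scaled CPM (mean 11.9 ± 4.28, SD, n = 3). Each male library lay above every hermaphrodite library, although the hermaphrodite libraries were the deeper ones. The male mean of mir-261 was 6.60-fold above a floor of 3 counts per hermaphrodite library, a ratio that leaves out the counting error of the male values. The gene was called as higher in male gonads (adjusted p 1.36e-10, edgeR QL test, adjusted by the Benjamini-Hochberg method). That p-value is for any difference between the sexes and not for this ratio. The call kept its direction in all 11 alternatives that tested it, with adjusted p-values from 5.57e-10 to 0.00101. These alternatives reuse the same counts and are not independent evidence. The gene reached the filter limit in all male libraries but in no hermaphrodite library, so the filter favoured this direction. The other 6 alternatives, the stricter filter and the removal of any library except male replicate 3, did not test it because its counts fell below their filter. The annotated hairpin lies on chromosome II in an intron of B0034.1, on the strand of that gene, and overlaps an exon of B0034.4 on the opposite strand. Whether counting used the strand is not given in the sources used here, so reads of mir-261 and of B0034.4 cannot be told apart from these counts.

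The copies mir-789-1 and mir-789-2 are separate hairpins on chromosome IV that share a miRNA name, and both were higher in male gonads. The counts of mir-789-1 were 2, 10 and 6 in hermaphrodite replicates 1 to 3 and 62, 29 and 51 in male replicates 1 to 3. In scaled CPM these were 1.08, 7.62 and 2.96 against 72.8, 40.6 and 170 (means 3.89 ± 3.37 and 94.4 ± 67.3, SD, n = 3 each), with no overlap between the sexes. For mir-789-1 the log2 fold change was 4.60 (SE 0.67, adjusted p 2.51e-10, edgeR QL test, adjusted by the Benjamini-Hochberg method).

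For mir-789-2 the counts were 7, 1 and 1 in hermaphrodite and 29, 5 and 101 in male replicates 1 to 3. The sexes again did not overlap, but the male libraries spread widely, at 34.0, 6.99 and 336 scaled CPM, and male replicate 3 lay far above the others. The log2 fold change of mir-789-2 was 6.04 (SE 1.73, same QL test, adjusted p 0.0251). Without male replicate 3 it was 3.18 (SE 0.76). The call was lost without hermaphrodite replicate 2 and without hermaphrodite replicate 3, at adjusted p-values of 0.0705 and 0.0717, and with no filter, at 0.0517, and over the alternatives that kept the copies apart the adjusted p lay between 9.06e-07 and 0.0717.

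How reads that match both mir-789 copies were counted is not given in the sources used here, so their separate values are uncertain. The first copy took 68.1% of the mir-789 counts in male replicate 1 (95% Wilson interval 58.0% to 76.8%), 85.3% in replicate 2 (69.9% to 93.6%) and 33.6% in replicate 3 (26.5% to 41.4%). The division between the copies in male replicate 3 thus lay outside the intervals of the other male libraries. Summed over the copies, the counts were 9, 11 and 7 in hermaphrodite and 91, 34 and 152 in male libraries. The summed log2 fold change was 5.27 (SE 0.75, same QL test, adjusted p 1.19e-07), and every male library lay above every hermaphrodite library. The hairpin mir-789-1 overlaps an exon of Y51H4A.24 on its own strand and mir-789-2 lies in an intron of T28F3.9 on the opposite strand.

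The X-linked genes mir-796 and mir-788 were also scarce in hermaphrodite libraries and higher in male gonads. Counts of mir-796 were 8, 8 and 9 in hermaphrodite and 32, 12 and 7 in male replicates 1 to 3. In scaled CPM this was 4.33, 6.10 and 4.44 against 37.6, 16.8 and 23.3, without overlap. This gave mir-796 a log2 fold change of 2.40 (SE 0.62, same QL test, adjusted p 0.000334), and it kept its direction and call in all 16 alternatives that tested it. These alternatives reuse the same counts and are not independent evidence. Only the male libraries of mir-796 reached the filter limit, so the filter favoured this direction.

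For mir-788 the counts were 6, 9 and 17 in hermaphrodite and 24, 8 and 6 in male replicates 1 to 3, or 3.25, 6.86 and 8.39 against 28.2, 11.2 and 19.97 scaled CPM. The log2 fold change of mir-788 was 1.67 (SE 0.60, same QL test, adjusted p 0.0125). The sexes did not overlap, but the call was lost in 9 of 16 alternatives, with adjusted p-values up to 0.264. These 9 included RLE scaling (0.0634), DESeq2 (0.113) and the removal of each library except male replicate 2, which gave 0.178, 0.146 and 0.0619 without hermaphrodite replicates 1 to 3 and 0.264 and 0.0629 without male replicates 1 and 3.

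Among the more abundant genes, mir-248 and mir-243 were called as higher in male gonads. For mir-248 the scaled CPM were 422, 761 and 445 in hermaphrodite and 1454, 992 and 1128 in male replicates 1 to 3. The sexes did not overlap and the log2 fold change was 1.14 (SE 0.41, same QL test, adjusted p 0.0130). The call was lost in 5 of 17 alternatives, among them the fits without hermaphrodite replicate 1 (adjusted p 0.104), replicate 2 (0.0766) or replicate 3 (0.0847) and with TMM without the mir-35 family (0.0887), within a range of 0.000349 to 0.104.

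The RDE-1 partner mir-243 stood at 130, 216 and 131 scaled CPM in hermaphrodite and at 392.1, 161 and 965 in male replicates 1 to 3. Male replicate 2 lay within the hermaphrodite range, so the sexes overlapped. Its log2 fold change was 1.66 (SE 0.45, same QL test, adjusted p 0.00109), and without male replicate 3 it was 0.48 (SE 0.28, adjusted p 0.143). The call was lost in 10 of 17 alternatives, among them the removal of each library except male replicate 2, and the adjusted p ranged from 0.00123 to 0.222. Without hermaphrodite replicates 1 to 3 it was 0.156, 0.101 and 0.203, and without male replicate 1 it was 0.0617.

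The 3 genes that fell in male relative to hermaphrodite gonads are X-linked and belong to 2 pairs of neighbouring hairpins. The neighbours mir-240 and mir-786 lie on one strand with 129 bp between their starts. Counts of mir-786 were 130, 110 and 92 in hermaphrodite and 8, 10 and 4 in male replicates 1 to 3. These were 70.4, 83.8 and 45.4 against 9.39, 14.0 and 13.3 scaled CPM (means 66.5 ± 19.5 and 12.2 ± 2.48, SD, n = 3 each), with every male library below every hermaphrodite library. The gene fell by 2.46 on the log2 scale (SE 0.62, same QL test, adjusted p 0.000288) and kept direction and call in all 17 alternatives.

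The neighbour mir-240 was the more abundant of the pair. Its scaled CPM were 275, 354.4 and 222 in hermaphrodite and 38.7, 43.4 and 150 in male replicates 1 to 3. The sexes did not overlap, and male replicate 3 lay nearest to the hermaphrodite libraries. The gene fell by 1.94 on the log2 scale (SE 0.49, same QL test, adjusted p 0.000315). Without male replicate 3 the log2 fold change of mir-240 was -3.07 (SE 0.24), and with library totals the call was lost at an adjusted p of 0.106, the upper end of a range from 1.34e-07. Counts of mir-240 were 3.9, 4.23 and 4.89 times those of mir-786 in hermaphrodite replicates 1 to 3 and 4.12, 3.10 and 11.2 times in male replicates 1 to 3. The highest ratio, in male replicate 3, rests on 45 against 4 counts. There mir-240 took 91.8% of the counts of the pair (95% Wilson interval 80.8% to 96.8%), which overlaps the interval of male replicate 1 (66.0% to 89.8%) and that of male replicate 2 (60.7% to 86.2%).

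The pair mir-359 and mir-785 also lies on one strand of the X chromosome, with 377 bp between starts, and the members did not give the same result. For mir-359 the scaled CPM were 227.4, 232 and 163 in hermaphrodite and 65.7, 49.0 and 59.9 in male replicates 1 to 3. The sexes did not overlap and all 3 male libraries were close together. The gene fell by 1.83 on the log2 scale (SE 0.51, same QL test, adjusted p 0.000919) and kept direction and call in all 17 alternatives, with adjusted p-values up to 0.0425.

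For mir-785 the scaled CPM were 187, 207 and 176 in hermaphrodite and 171, 161 and 9.99 in male replicates 1 to 3. All male libraries were lower, but male replicates 1 and 2 only slightly, and replicate 3, with 3 counts, was 16.6-fold below their mean. With all libraries the log2 fold change of mir-785 was -0.70 (SE 0.52, same QL test, adjusted p 0.257), which was not called. The ratio of mir-359 to mir-785 counts was 1.09 ± 0.145 (SD, n = 3) in hermaphrodite libraries and 0.384, 0.304 and 6.0 in male replicates 1 to 3. Whether the sexes differ between these neighbours was not tested.

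**Figure D4:**
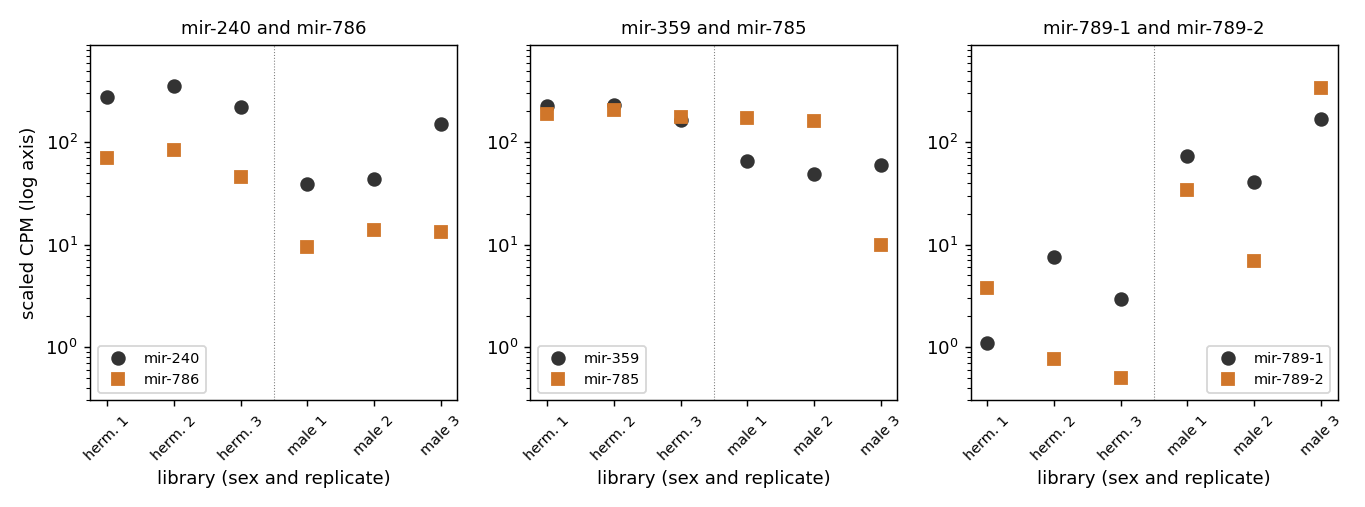
Scaled CPM on a log axis (vertical) in each library (horizontal, hermaphrodite left and male right of the dotted line) for the neighbours mir-240 and mir-786, the neighbours mir-359 and mir-785, and the copies mir-789-1 and mir-789-2. In male replicate 3, mir-785 drops to 9.99 and mir-789-2 reaches 336, while mir-359 stays at 59.9.

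Of the 15 tested genes that were not called, log2 fold changes ran from -0.70 to 1.28, and 2 of them, mir-354 and mir-245, had an unadjusted p under 0.05. Approximate 95% intervals extended from 0.79 to 1.25 on the log2 scale to either side of these estimates. Their highest upper end was 2.41, for mir-354, and their lowest lower end was -1.72, for mir-785, so changes of up to that size could be missed. The most abundant of the uncalled genes were mir-245 and mir-253. For mir-245 the scaled CPM were 1377, 1312 and 881 in hermaphrodite and 1304, 1558 and 3442 in male replicates 1 to 3, so the sexes overlapped and male replicate 3 stood apart. Its log2 fold change was 0.82 (SE 0.41, same QL test, adjusted p 0.0747) and -0.01 without male replicate 3.

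For mir-253 the scaled CPM were 1425, 1963 and 1194 in hermaphrodite and 1247, 1146 and 1268 in male replicates 1 to 3. The male values lay close together at the lower end of the hermaphrodite range. The log2 fold change of mir-253 was -0.32 (SE 0.40, same QL test, adjusted p 0.540). It was called as lower in male gonads with TMM without the mir-35 family, at -0.79, and as higher with library totals, at 0.71, so no direction can be given.

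The male libraries did not overlap the hermaphrodite libraries for mir-230, at 379, 267 and 399 against 204, 240.9 and 145 scaled CPM in replicates 1 to 3, and the log2 fold change was 0.83 (SE 0.44, same QL test, adjusted p 0.0946). For mir-354, at 43.4, 37.8 and 76.6 against 19.0, 30.5 and 14.3 scaled CPM, the adjusted p was 0.0501. The mir-354 hairpin overlaps an exon of rps-20, a ribosomal protein gene, on its own strand. For mir-244 the scaled CPM were 363, 280.5 and 282 in hermaphrodite and 426, 333 and 256 in male replicates 1 to 3. These overlapped, and the log2 fold change of mir-244 was 0.14 (SE 0.42) with a sign that changed with the scaling.

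Male replicate 3, the shallowest library, stood apart from the other male libraries for many of the genes. It was the highest male library for 12 of the 25 tested genes (48.0%) and the lowest for 7 (28.0%), against 42.7% and 46.0% of all tested miRNAs. Besides mir-785, it was 19.5-fold below the mean of male replicates 1 and 2 for mir-798 (2 counts), 9.48-fold below for mir-232 (1 count), 4.24-fold below for mir-787 and 3.87-fold below for mir-355. It was 16.4-fold above that mean for mir-789-2, 7.62-fold above for mir-252, 5.57-fold above for mir-242, 3.65-fold above for mir-240 and 3.49-fold above for mir-243.

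Some somatic markers differed in the same library. The intestinal mir-60 stood at 1452, 943 and 220 scaled CPM in male replicates 1 to 3, the muscle mir-1 at 1242, 965 and 333, and mir-228 of glia and hypodermis at 8246, 8675 and 16048. Their part in the values above was not tested. Without male replicate 3 the genes mir-242, mir-252 and mir-253 were called as lower in male gonads, with log2 fold changes of -1.85 (SE 0.68), -1.74 (SE 0.25) and -0.63 (SE 0.19). In that fit mir-787 at 1.12 (SE 0.32) and mir-798 at 0.81 (SE 0.32) were called as higher, with adjusted p-values of 0.00817 and 0.0397 in the edgeR QL test, adjusted by the Benjamini-Hochberg method. With all libraries none of these 5 was called. For mir-252 the scaled CPM were 174, 192 and 116 in hermaphrodite and 68.1, 49.0 and 446 in male replicates 1 to 3, so male replicates 1 and 2 lay below and male replicate 3 above every hermaphrodite library.

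All 50 genes were found by name in the annotation, and 21 of them lie on the X chromosome, of which hermaphrodites carry a pair and males a single copy. Of the 11 tested X-linked genes, 3 were higher (mir-248, mir-788 and mir-796) and 3 lower (mir-240, mir-359 and mir-786) in male gonads. Of the 14 tested autosomal genes, 4 were higher (mir-243, mir-261, mir-789-1 and mir-789-2) and 0 lower, at an adjusted as at an unadjusted p under 0.05, in edgeR's test with TMM and all libraries. Autosomal mir-253 was called as lower by DESeq2 and by edgeR with TMM without the mir-35 family, and autosomal mir-242, mir-252 and mir-253 were called as lower by edgeR without male replicate 3. Over all tested miRNAs 16 were higher and 10 lower of 40 on the X chromosome, and 22 were higher and 21 lower of 83 on autosomes. The median log2 fold change was 0.83 for the X-linked and 0.54 for the autosomal genes of the set, against 0.65 and 0.14 over all tested miRNAs. This difference between chromosomes was not tested. A position inside a protein-coding gene on its strand was annotated for 11 of the 50, and 8 had another miRNA on the same strand within 10 kb.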

How the data were processed

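The authors deposited raw counts, 1 whole number for each of 253 miRNA genes in each library, and a table of normalized values, used here as a signal. The labels' processing tools name Bowtie2, HTSeq and DESeq2 without roles. Only file and column names give ce10 as the build and 22 as the miRBase release. Trimming steps and the handling of multi-mapping reads are not given in the sources used here. The deposited signal equalled the counts divided by 1 factor per library. Library totals ranged from 245399 to 2621478 counts.

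Groups and replicate numbers came from the sample titles. The members and lists were chosen with earlier results of these data known. Counts of all miRNAs were filtered with filterByExpr (minimum count 10), scaled with TMM and tested with edgeR 4.0.16 in R 4.3.3 (estimateDisp, glmQLFit and glmQLFTest, robust, two-sided, sex as the only term), with Benjamini-Hochberg adjustment over 124 miRNAs at 0.05. The procedure was tested on simulated data. Standard errors are the log2 fold change over the square root of F. Shares were compared by exact permutation in scipy 1.17.1. Genes are named if called, among the 6 most abundant of a sex, mir-261 or a mir-789 copy. Other genes were named after their values were seen. Alternatives were other scalings, DESeq2 1.42.0, limma-voom and limma-trend (limma 3.58.1, the latter on log2 of the signal plus 1), other filters, a replicate block, summed copies and leaving out each library. Positions come from the WBcel235 annotation (Ensembl release 115), whose build differs in name from ce10, so no coordinates are given.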

Additional observations from a re-analysis of the deposited data

How the results depend on the processing

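The number of genes called as higher in male gonads was 7, and it moved by more than 1.5 times to 15 with library totals, 4 with TMM without the mir-35 family and 3 with the stricter filter, which tested 21 of the 25 genes. It ranged from 2 to 7 when 1 library was left out, with between 22 and 25 of the genes tested. Over all tested miRNAs the higher calls then ranged from 23 to 43, against 38 with all libraries. The number called as lower was 3 and ranged from 3 to 6 when 1 library was left out. With the replicate number as a block there were 5 higher and 3 lower calls, against 31 and 27 over all 124 tested miRNAs. The calls of mir-243 (adjusted p 0.0630) and mir-248 (0.0535) were then lost. Same-numbered libraries of the sexes did not deviate together (correlations of deviations -0.12, -0.03 and -0.26 for numbers 1 to 3). No library correlated best with its own number. With 3 libraries per sex these correlations cannot exclude a shared preparation, and the labels give only the shared number. The sign of the uncalled mir-244 changed to -0.21 with RLE, -0.41 with TMM without the mir-35 family, -0.23 with DESeq2 and -0.24 with limma-trend on the authors' normalized values, and its log2 fold change ranged from -0.44 to 0.012 when 1 library was left out. That of mir-245 ranged from -0.010 to 1.00 over the same removals, and mir-253 changed sign to 0.71 with library totals. The cause of these shifts was not tested. Detection counts, and the difference in the set's share of counts, which ranged from 0.522 to 0.644 percentage points when 1 library was left out, did not move by more than the limits used. Low depth limits mir-261, with at most 9 counts in a library, and the 8 genes counted but below the filter.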
